A study of Mus musculus with 19 samples.

Results

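Apoe and a set of brain lipid transport genes were examined in RNA sequencing of mouse cerebral cortex. The set held 9 of the 55487 genes in the deposited tables, chosen by name for their part in lipid transport: Apoe, Clu, Apoc1, Apod, Abca1, Abcg1, Lpl, Lrp1 and Soat1. All 9 passed the filter on low counts and were among the 19105 genes tested. The 19 libraries came from the cortex of male P301S/E4 mice recorded as 41 weeks old, which combine a tau mutation known from frontotemporal dementia with the E4 form of human apolipoprotein E. Of these, 10 libraries were from mice given lemborexant, a blocker of both orexin receptors used against insomnia, by gavage at 30 mg/kg once a day at zeitgeber time 13, from 7.5 months of age until 9.5 months. The other 9 were from mice given 0.5% methylcellulose as vehicle on the same schedule. By the labels both groups carried the tau mutation and E4, and no group without them was used here. Whether each library carried them was not tested. The labels name neither the promoter that drives the tau transgene nor the mouse behind each library, so p-values measure the spread between libraries, which may in part be technical.

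In the brain, lipids move between cells on particles built around apolipoproteins. Astrocytes, and microglia under stress, secrete apolipoprotein E and clusterin (the product of Clu), the exporters Abca1 and Abcg1 load them with cholesterol and phospholipid, and receptors such as Lrp1 take the particles up. Lpl encodes lipoprotein lipase, which releases fatty acids from particles, and Soat1 encodes the enzyme that esterifies cholesterol for storage in lipid droplets. Oxysterols that build up in loaded cells activate the liver X receptors, nuclear receptors that pair with retinoid X receptors and raise Abca1, Abcg1 and Apoe transcription.

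Liver X receptors bind paired repeats, so the promoters of the exporter and the particle protein that tracked each other most closely among pairs with Apoe are shown. The bases just before the annotated start are given from RefSeq (GRCm38.p6), 5′ to 3′ on the strand of the gene, which is the minus strand for both, at chr4:53159896-53160145 for Abca1 and chr7:19699189-19699438 for Apoe. Capitals mark a match, read on the opposite strand, to a loose form of the paired repeat, GGTNA, then any 5 bases, then GGTNA.
Abca1: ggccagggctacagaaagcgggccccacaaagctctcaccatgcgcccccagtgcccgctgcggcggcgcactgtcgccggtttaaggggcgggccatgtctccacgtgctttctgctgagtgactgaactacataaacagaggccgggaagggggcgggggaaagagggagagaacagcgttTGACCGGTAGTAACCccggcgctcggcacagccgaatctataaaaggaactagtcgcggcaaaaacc
Apoe: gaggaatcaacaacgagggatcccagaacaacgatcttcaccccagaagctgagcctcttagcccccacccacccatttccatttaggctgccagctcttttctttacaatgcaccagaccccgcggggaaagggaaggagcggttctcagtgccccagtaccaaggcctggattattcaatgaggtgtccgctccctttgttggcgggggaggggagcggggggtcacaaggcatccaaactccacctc
The match in Abca1 lies 67 to 53 bases before the start. Over the 250 bases before the start and both strands, 204 of 32851 RefSeq windows held the motif (0.621%), and among the 7 windows of the 5 genes of the set with an entry (3 of them for Apoe) the Abca1 window was the one that did. The stricter repeat, AGGTCA, then any 4 bases, then AGGTCA again, was in 5 windows (0.0152%), none of them from the set, and every match to it also matches the loose form. These are letters in the reference genome, not binding measured in these mice. Sequence outside the 250 bases was not searched, so a window without a match says nothing of sites elsewhere.

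Between 20185098 and 31795633 estimated reads fell on genes in each library, so that a gene at a level of 1 in counts-per-million units (CPM) rested on at least 20 reads. Libraries are named by group and a number given in accession order. Several libraries stood apart. In 4 libraries (lemborexant 1 and 10, vehicle 1 and 4) Cst7, which encodes cystatin F and marks disease-associated microglia, was at 0.253 CPM or less, while the other 15 had at least 16.4 CPM under the same genotype label. Lemborexant 7 had 2516 CPM of summed hypothalamic markers, against at most 19.3 CPM in any other library, and its level of Slc17a7, a marker of cortical excitatory neurons, was 14.6 CPM, against 91.9 to 206.5 CPM elsewhere. Vehicle 7 had 936 CPM of 6 summed hepatocyte markers, against 25.7 CPM in vehicle 5 and at most 4.07 CPM in the others. The pairs lemborexant 1 and 10, 3 and 8, and 4 and 9 were nearly alike (chi-square of their counts over its degrees of freedom 3.08 to 3.66, and in the remaining 168 pairings 12.2 to 274), and fits were repeated with each pair summed.

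Per length, Clu was the most abundant transcript of the set in every library, at 1198 to 4311 in transcripts-per-million units (TPM), with a median of 3026 TPM. Apod, which encodes a small lipid-binding lipocalin made by oligodendrocytes and other glia, came next in all 19 libraries, with a median of 757 TPM. Apoe had a median of 114 TPM and a range of 27.2 to 382 TPM, and Clu exceeded it by 10.8 to 60.2 times, library by library. The genetic background bears on that level. The mice carry human APOE4 and the deposited tables count reads on the mouse genome, so Apoe reads from mouse sequence and human APOE reads that resemble it cannot be told apart, and the row may miss human transcripts. Its estimated length was 1317 to 1393 bases.

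In GRCm38, Clu lies on chromosome 14 (65968483 to 65981547, plus strand), Apod on chromosome 16 (31296192 to 31314808, minus), Abca1 on chromosome 4 (53030787 to 53159895, minus) and Abcg1 on chromosome 17 (31057675 to 31117988, plus). Lpl lies on chromosome 8 (68880491 to 68907448, plus), Lrp1 on chromosome 10 (127538161 to 127621148, minus) and Soat1 on chromosome 1 (156424525 to 156474331, minus). All 9 are annotated as protein-coding, and values are sums over each gene's transcripts.

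The middle of the order was crowded. Apoe, whose row may miss human transcripts, exceeded Lrp1 (median 78.8 TPM) in 12 of 19 libraries. Lrp1 exceeded Abcg1 (78.6 TPM) in 14, and Abcg1 exceeded Apoc1 (69.2 TPM) in 11. All these ranges overlapped. Apoc1, the gene of a small apolipoprotein that hinders lipases and receptor uptake, varied most, at 7.17 to 525.9 TPM. Lpl (median 30.95 TPM), Soat1 (23.9 TPM) and Abca1 (6.63 TPM) were lowest, and Soat1 exceeded Abca1 in all 19 libraries.

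**Figure D1:**
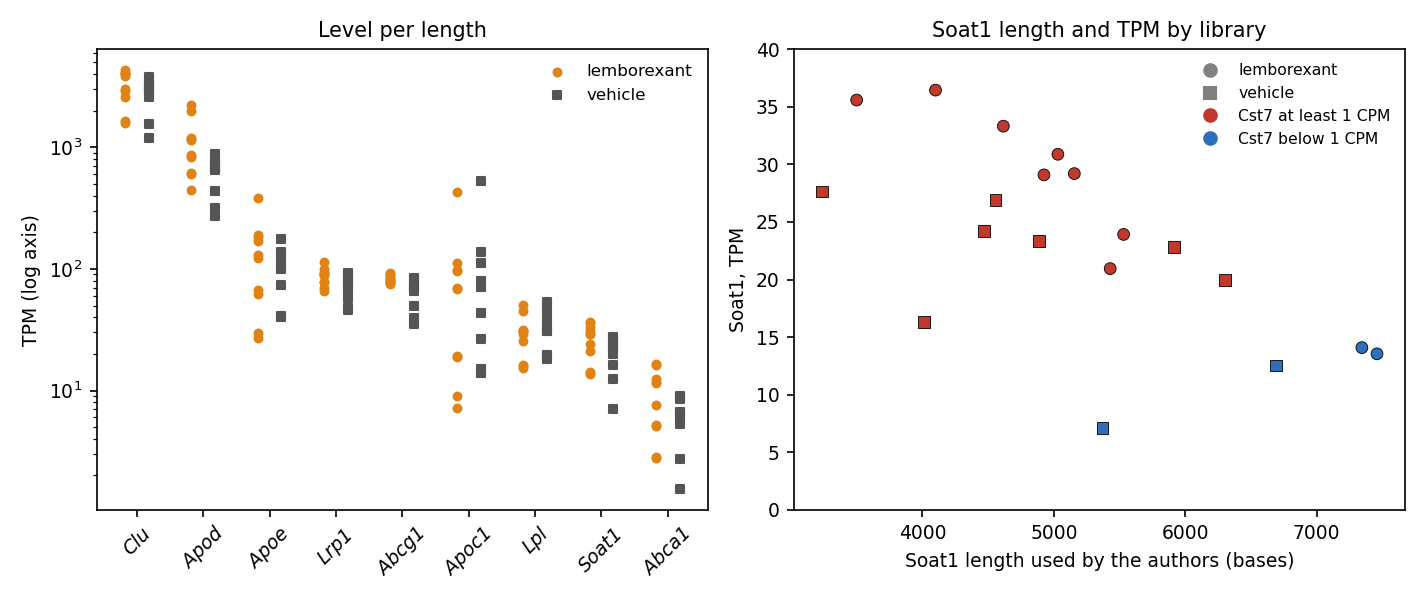
Left, level per length (TPM, log axis) of the 9 genes in 10 lemborexant (circles) and 9 vehicle (squares) libraries, in order of the median. Clu and Apod lie above the others in each library, and Apoc1 spreads widest. Right, Soat1 TPM against the Soat1 length in bases deposited with it, coloured by Cst7. The 4 libraries with Cst7 below 1 CPM lie between 5371 and 7459 bases and at or below 14.1 TPM.

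After lemborexant, none of the 9 genes passed the test (edgeR's quasi-likelihood test with Benjamini-Hochberg adjustment over 19105 genes), where 2.61% of all genes tested did. At an unadjusted p under 0.05 there were 2, Apod and Abcg1, where 25.7% of all genes were. Of the 9, 7 had a log2 change above 0, as did 10237 of all 19105 genes, with a median of 0.22 beside 0.03 for all genes. Among the 7, Apoe and Clu changed sign in some other fits. With nearly alike pairs summed, 0 of the 9 and 0% of 19224 genes passed, and 21.3% of all genes had an unadjusted p under 0.05. With the 4 libraries with Cst7 below 1 CPM left out, 0 of the 9 passed, where 2.71% of all genes did and 23.6% had an unadjusted p under 0.05.

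**Figure D2:**
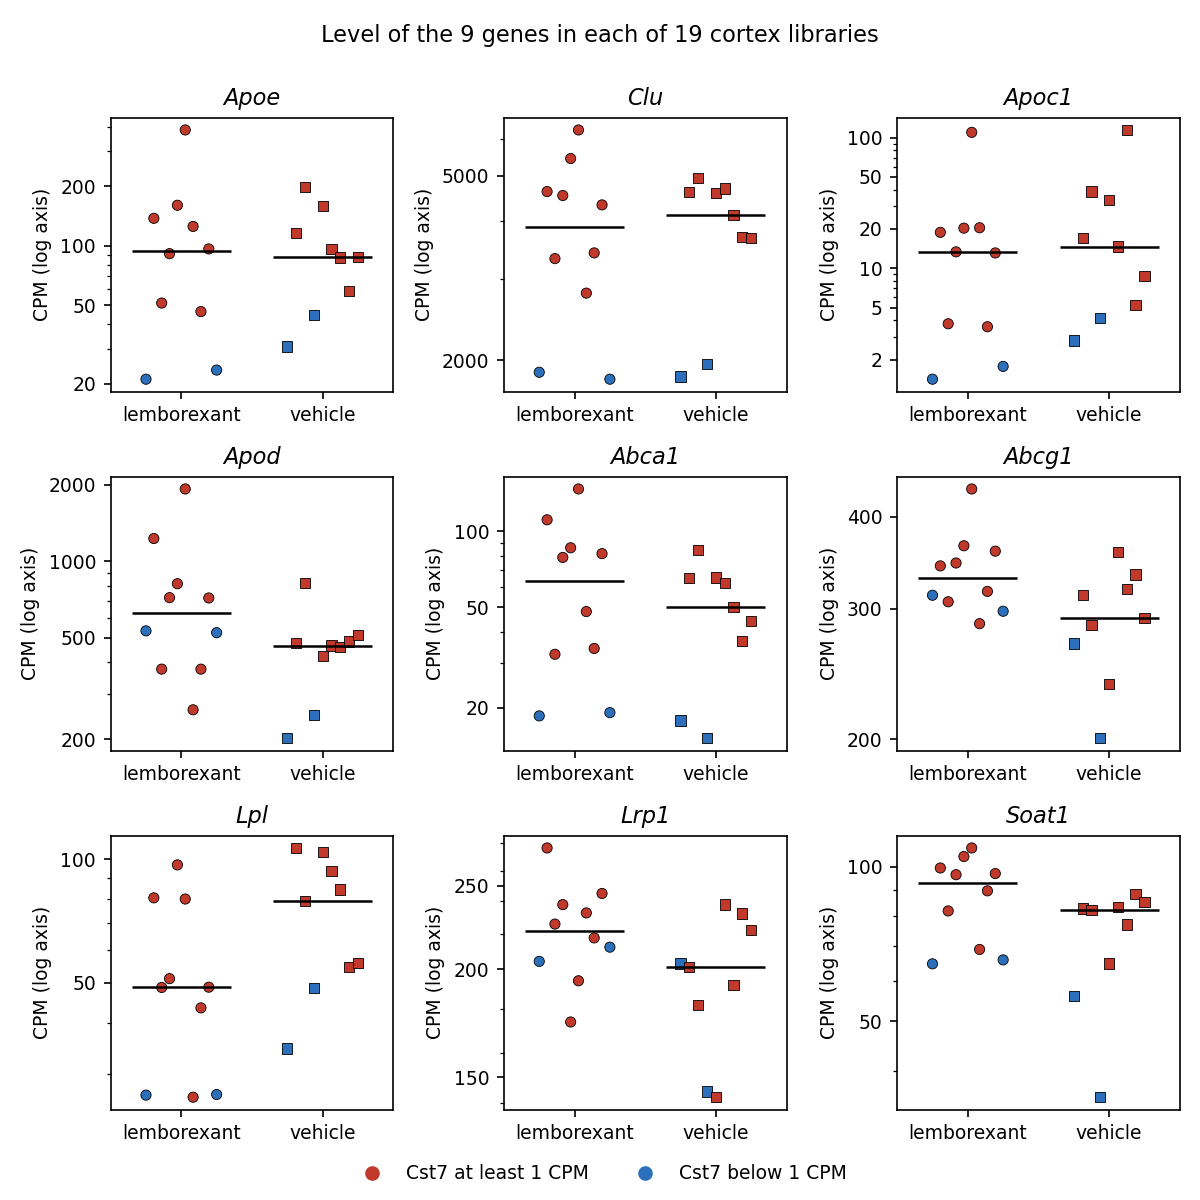
CPM (log axis) of each gene in every library, lemborexant on the left and vehicle on the right. Bars are medians, red points have Cst7 of at least 1 CPM and blue points below 1 CPM. The treatments overlap for all 9 genes, while the blue points lie below all red ones for Apoe, Clu and Abca1.

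Among the apolipoproteins, Apoe ranged over 21.1, 93.6 and 385 CPM (lowest, median, highest) in lemborexant libraries and over 30.8, 87.8 and 198 CPM in vehicle libraries. Lemborexant 6 held the highest value and lemborexant 1 the lowest, and the vehicle range lay inside the lemborexant range. The log2 change was 0.22 ± 0.46 (SE; adjusted p = 0.792, edgeR), with a 95% interval of -0.68 to 1.12. It was 0.50 with the nearly alike pairs summed and -0.22 without lemborexant 6. Clu ranged over 1821, 3868 and 6277 CPM in lemborexant libraries and over 1846, 4113 and 4948 CPM in vehicle libraries. Its log2 change was 0.02 ± 0.24 (adjusted p = 0.969, edgeR; 95% interval -0.45 to 0.48), a narrower interval than for Apoe. Both intervals took a normal spread and counted nearly alike pairs as separate libraries, so they may be too narrow.

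Apod had the largest log2 change of the set. It ranged over 260.8, 624.6 and 1921 CPM in lemborexant libraries and over 201.7, 466.3 and 822 CPM in vehicle libraries. Lemborexant 6 and 2 (1921 and 1227 CPM) lay above every vehicle library, and vehicle 1 and 4 (202 and 249 CPM) lay below every lemborexant library. Means were 747 ± 497 CPM after lemborexant and 455 ± 176 CPM after vehicle (SD, n = 10 and 9), a log2 change of 0.71 ± 0.32 that did not pass (p = 0.0375, adjusted p = 0.170, edgeR). It was 0.44 without lemborexant 6. Oligodendrocyte markers summed to 4594 to 14530 CPM (median 10380) in lemborexant libraries and to 5359 to 10870 CPM (median 8072) in vehicle libraries, while markers of meninges summed to 64.1 to 346 CPM (median 205) in lemborexant and 71.4 to 203.5 CPM (median 130) in vehicle libraries. Markers of other brain regions differed between the treatments as well, in the fit where 0.953% of all genes rose and 1.65% fell. With nearly alike pairs summed, 0 of 19224 genes passed. Of 4 thalamic markers 2 rose (Tcf7l2 and Rora), and the list summed to a median of 163 CPM in lemborexant and 106 CPM in vehicle libraries. Of 5 striatal markers 1 rose (Drd1; median sums 21.6 and 14.8 CPM), and of 5 hippocampal markers 1 fell (C1ql2; median sums 157 CPM in lemborexant and 273 CPM in vehicle libraries). The highest striatal sums, 48.75 and 45.05 CPM, came from the nearly alike lemborexant 4 and 9. The highest thalamic sum was 377 CPM in lemborexant 2, followed by 302 and 295.7 CPM in the nearly alike lemborexant 3 and 8. All 3 hypothalamic markers tested rose, with the high values of lemborexant 7 given above. The part of any of these in the values of Apod or the other genes was not tested, and in bulk tissue more cells of a type and more RNA per cell cannot be told apart.

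The exporters differed in spread. Abca1 ranged over 18.6, 63.45 and 147 CPM in lemborexant libraries and over 15.1, 50 and 84.5 CPM in vehicle libraries, a log2 change of 0.42 ± 0.39 (adjusted p = 0.502, edgeR). Abcg1 was far steadier, at 286.5, 329.9 and 436 CPM in lemborexant libraries and 200.5, 292 and 358 CPM in vehicle libraries. Its mean was 337 ± 43.7 CPM after lemborexant and 290 ± 49.1 CPM after vehicle (SD, n = 10 and 9), and its log2 change of 0.22 ± 0.10 did not pass (p = 0.0498, adjusted p = 0.194, edgeR).

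Lpl and Apoc1 were the genes with a log2 change below 0. Lpl ranged over 26.4, 48.8 and 96.8 CPM in lemborexant libraries and over 34.6, 79.1 and 106 CPM in vehicle libraries. The middle of the range differed more than its ends, and lemborexant 1, 7 and 10 (26.7, 26.4 and 26.8 CPM) lay below every vehicle library. Of these, lemborexant 1 and 10 were nearly alike and had Cst7 below 1 CPM, and lemborexant 7 was the library high in hypothalamic markers. Means were 52.9 ± 24.99 CPM after lemborexant and 73.4 ± 25.9 CPM after vehicle (SD, n = 10 and 9), a log2 change of -0.47 ± 0.26 (adjusted p = 0.257, edgeR). Lrp1, the large endocytic receptor for Apoe-bearing particles, was at 174, 222 and 276.5 CPM in lemborexant libraries and 142, 201 and 238 CPM in vehicle libraries, with a log2 change of 0.19 ± 0.11 (adjusted p = 0.271, edgeR). Soat1 was at 64.7, 93.1 and 109 CPM in lemborexant libraries and 35.6, 82.4 and 88.5 CPM in vehicle libraries, with a log2 change of 0.27 ± 0.15 (adjusted p = 0.257, edgeR). In 6 lemborexant libraries Soat1 was above every vehicle library, and these include the nearly alike lemborexant 4 and 9. They also include lemborexant 8 (89.7 CPM), whose nearly alike library, lemborexant 3, was at 82.0 CPM.

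**Figure D3:**
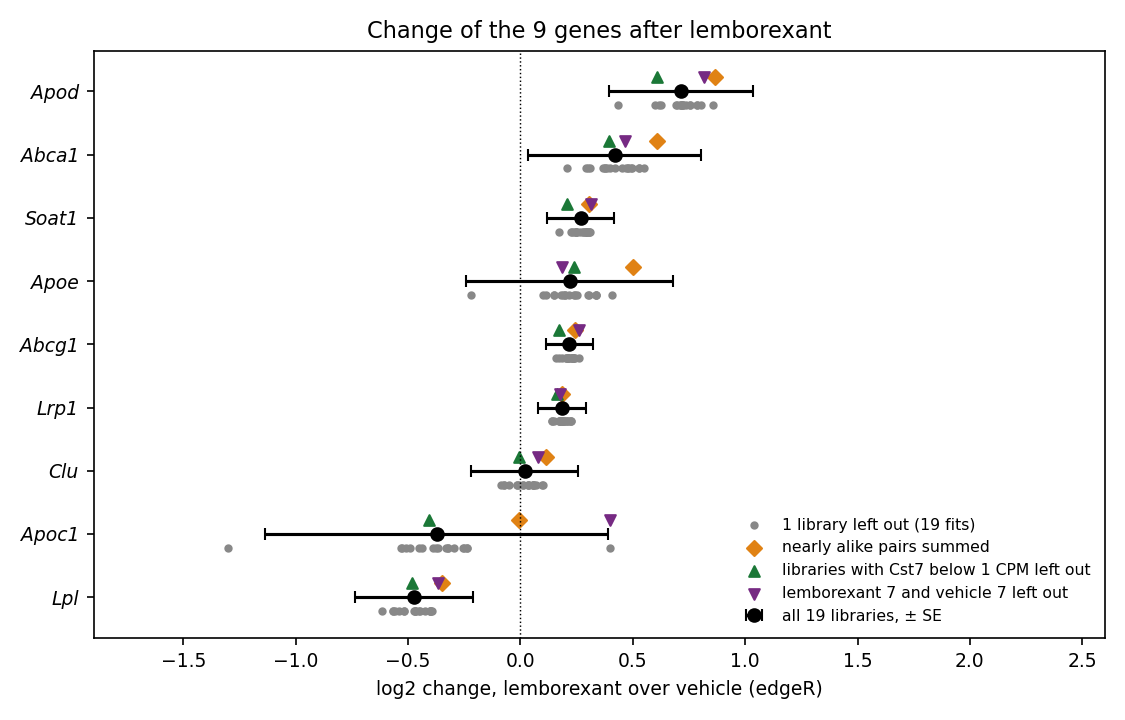
log2 change of the 9 genes, lemborexant over vehicle, with the SE (black), each library left out in turn (grey), nearly alike pairs summed (orange), libraries with Cst7 below 1 CPM left out (green), and lemborexant 7 and vehicle 7 left out (purple). Apod lies highest and Lpl lowest among the changes whose sign held in all these fits, and Apoe, Clu and Apoc1 have fits on both sides of 0.

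Apoc1 lies beside Apoe on chromosome 7 (GRCm38, minus strand, 19689481 to 19692660, with Apoe at 19696109 to 19699188), and Apoc4 and Apoc2 follow in the same cluster. Apoc1 ranged over 1.41, 13.2 and 110 CPM in lemborexant libraries and over 2.79, 14.7 and 114.5 CPM in vehicle libraries, with a log2 change of -0.37 ± 0.76 (adjusted p = 0.787, edgeR). The extremes were lemborexant 6 and vehicle 7, and the log2 change was -1.30 without lemborexant 6 and 0.40 without vehicle 7. These libraries differed in the company Apoc1 kept. In lemborexant 6, Apoe was at 385 CPM, Apoc4 at 37.1 CPM and Apoc2 at 13.4 CPM, each the highest of all libraries, with hepatocyte markers at 1.11 CPM. In vehicle 7, Apoe was at 87.0 CPM, near the vehicle median, Apoc4 at 27.5 CPM and Apoc2 at 4.93 CPM, with hepatocyte markers at 936 CPM. The TPM ratio of Apoe to Apoc1 was 0.891 in lemborexant 6 and 0.192 in vehicle 7, and 1.23 to 3.80 in the other 17 libraries. Human transcripts that the Apoe row may miss are not part of this ratio.

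**Figure D4:**
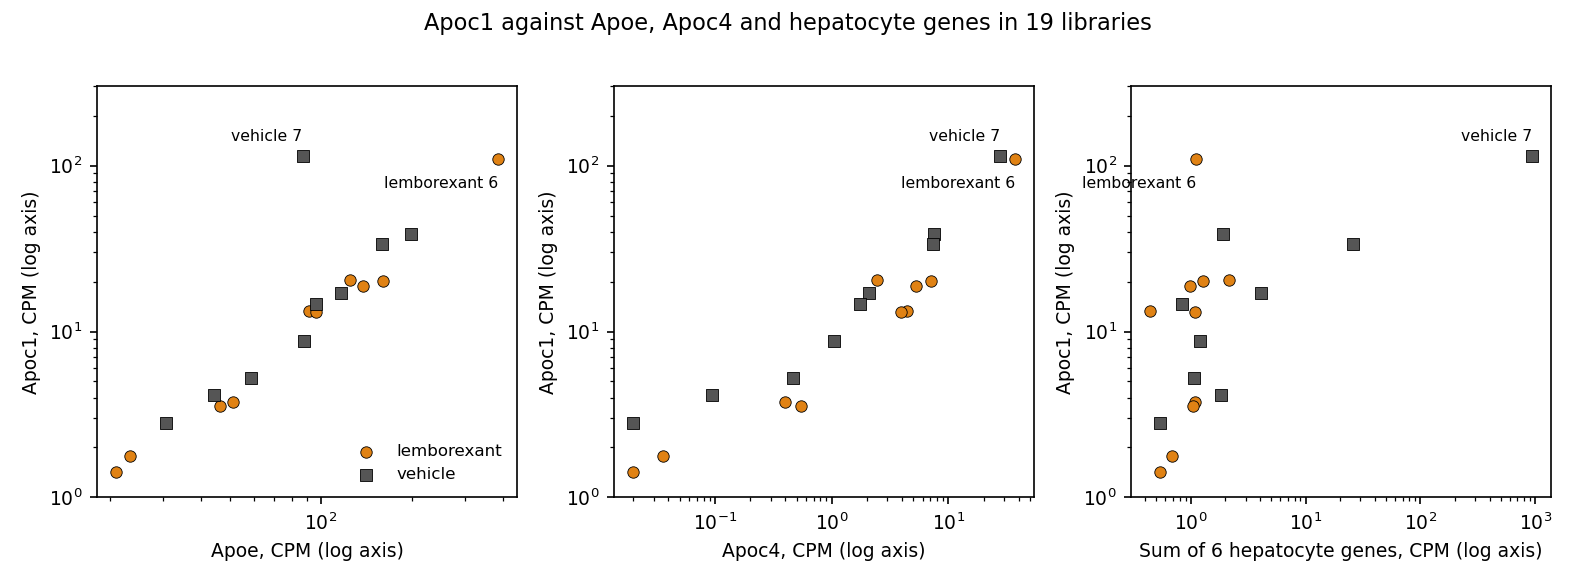
Apoc1 CPM against Apoe, Apoc4 and the sum of 6 hepatocyte markers (CPM, log axes; values under 0.02 drawn at 0.02) in lemborexant (orange circles) and vehicle (grey squares) libraries. Apoc1 climbs with Apoe along one band that vehicle 7 leaves, and the right panel shows vehicle 7 alone at 936 CPM of hepatocyte markers with lemborexant 6 at 1.11 CPM.

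Other genes of lipid transport were read from 6 lists, which held 71 genes beside the set, of which 64 were tested. None rose after lemborexant in edgeR, where 0.953% of all genes did, and 3 fell (Apoa2, Apoa1 and Apoh), where 1.65% did, with a median log2 change over the 64 of 0.11. All 3 encode apolipoproteins made chiefly in the liver. Apoa2 averaged 0.853 CPM after lemborexant and 39.1 CPM after vehicle, a log2 change of -5.50 ± 1.24 (adjusted p = 0.0298, edgeR), with 325 CPM in vehicle 7 and at most 17.4 CPM in the other vehicle libraries. Apoa1 (-4.35 ± 1.12, adjusted p = 0.0438, edgeR) and Apoh (-3.06 ± 0.81, adjusted p = 0.0469, edgeR) likewise had 230 and 39.8 CPM in vehicle 7, against at most 6.94 and 1.74 CPM in the other vehicle libraries. With lemborexant 7 and vehicle 7 left out, 0 of the listed genes passed. With DESeq2, 4 passed, of which Apoa2, Scarb1 and Lipc fell and Msr1, the gene of a macrophage scavenger receptor, rose (log2 change 1.59, adjusted p = 0.0383, DESeq2), while Msr1 had 1.58 ± 0.55 in edgeR (adjusted p = 0.0940).

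The liver X receptor genes Nr1h3 and Nr1h2 averaged 9.28 and 46.2 CPM after lemborexant and 9.81 and 47.9 CPM after vehicle, with log2 changes of -0.08 ± 0.24 and -0.05 ± 0.12. These receptors were named for their role after their values were seen. Among retinoid X receptors, Rxra had a log2 change of 0.27 ± 0.10 (adjusted p = 0.0958, edgeR) and Rxrb one of -0.37 ± 0.13 (adjusted p = 0.0990, edgeR). The Apoe receptor gene Lrp8 had 0.29 ± 0.10 (adjusted p = 0.0903, edgeR) and Scarb1, a receptor for high-density lipoprotein, -0.25 ± 0.08 (adjusted p = 0.0731, edgeR). None of these passed. Of the listed transporters outside the set, Abca2 (0.27 ± 0.11, adjusted p = 0.133, edgeR), an exporter abundant in oligodendrocytes, and Abca8a (0.46 ± 0.20, adjusted p = 0.162, edgeR) had the smallest p. The lipase genes Lipc and Lipe, for hepatic and hormone-sensitive lipase, had -1.60 ± 0.48 (adjusted p = 0.0678, edgeR; 4.54 CPM in vehicle 7) and 0.27 ± 0.11 (adjusted p = 0.139, edgeR). Apoc3, another liver apolipoprotein gene, had -2.91 ± 0.83 (adjusted p = 0.0591, edgeR; 33.9 CPM in vehicle 7). Of the carriers, Fabp3, which binds fatty acids, had -0.32 ± 0.14 (adjusted p = 0.158, edgeR), and Npc1, the lysosomal partner of Npc2, had 0.22 ± 0.12 (adjusted p = 0.259, edgeR).

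Of the 6 other genes of the Apoe neighbourhood none passed. Tomm40, which encodes a mitochondrial import channel, had -0.48 ± 0.14 (adjusted p = 0.0594, edgeR), Clptm1 -0.22 ± 0.09 (adjusted p = 0.129, edgeR) and Bcam 0.41 ± 0.19 (adjusted p = 0.181, edgeR). The log2 changes were 0.45 ± 0.78 for Apoc2, 0.19 ± 1.02 for Apoc4 and -0.01 ± 0.21 for Nectin2.

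The libraries also divided into those with Cst7 of at least 1 CPM (8 lemborexant and 7 vehicle) and those below it (2 lemborexant and 2 vehicle). The division was made from a measured level and is described with no test. In CPM, 3 of the 9 genes (Apoe, Clu and Abca1) were higher in all 15 libraries than in any of the 4, where 6.33% of all genes were, and none was lower throughout, where 2.27% were. The same 3 genes were higher throughout, and none lower, with pairs averaged (7.07% of all genes higher and 2.73% lower) and without lemborexant 7 and vehicle 7 (7.42% higher and 2.66% lower). Apoe ran from 46.3 to 385 CPM (median 96.3) with Cst7 of at least 1 CPM and from 21.1 to 44.4 CPM (median 27.1) below it, so the ranges barely missed each other. Clu was at 2792 to 6277 CPM (median 4533) against 1821 to 1967 CPM (median 1865), a wider gap. Abca1 was at 32.6 to 147 CPM (median 65.4) against 15.1 to 19.1 CPM (median 18.2).

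Apoc1 had the largest ratio of medians in the set, 7.47, at 3.57 to 114.5 CPM with Cst7 of at least 1 CPM and 1.41 to 4.14 CPM below it, with ranges that overlapped. Ratios were 3.60 for Abca1, 3.55 for Apoe, 2.58 for Lpl and 2.43 for Clu, and 1.42, 1.25, 1.13 and 1.09 for Soat1, Apod, Abcg1 and Lrp1, beside 0.991 for the median of all genes. The exporters parted here, Abca1 with a higher and Abcg1 with a nearly even level. In TPM, Apoc1 and Soat1 also ceased to overlap, making 5 of 9 higher throughout where 5.73% of all genes were, and none lower where 0.675% were. For Soat1 the length deposited with each value moved too, at 3236 to 6301 bases (median 4889) with Cst7 of at least 1 CPM and 5371 to 7459 bases (median 7017) below it, and its TPM ratio of medians was 2.06.

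Over the lists and the set, 12 of 73 genes were higher throughout in CPM with Cst7 of at least 1 CPM and 1 was lower. Of all genes, 6.33% were higher and 2.27% lower. In TPM 15 were higher and 0 lower, where 5.73% and 0.675% of all genes were. There Lipa, Pnpla2, Srebf1 and Nceh1 were no longer apart, and Apoc1, Soat1, Lcat, Nr1h2, Nr1h3 and Plin3 were added. In CPM, beside the 3 of the set, the genes higher throughout were Apoc2, Apoc4, Trem2, Lipa, Pnpla2, Srebf1, Npc2, Plin2 and Cyp27a1. Trem2, the microglial receptor that binds lipids and apolipoproteins, was at 74.0 to 334 CPM against 10.01 to 26.7 CPM. Npc2, which carries cholesterol out of lysosomes, was at 168 to 566 CPM against 75.3 to 115 CPM, and Plin2, a coat protein of lipid droplets, at 20.8 to 54.2 CPM against 9.69 to 11.9 CPM. Nceh1, a hydrolase of cholesterol esters, was the one lower throughout in CPM, at 93.4 to 141 CPM against 152 to 163 CPM.

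Some lists of cell markers moved with the same division. Reactive astrocyte markers summed to 3299 to 9652 CPM with Cst7 of at least 1 CPM and 515 to 663 CPM below it, and the 6 microglial markers to 565 to 1501 CPM against 298 to 442 CPM. Markers of disease-associated microglia summed to 202.5 to 1138 CPM against 44.8 to 73.4 CPM, a list that holds Cst7 itself, and its Itgax was at 0.0362 to 0.196 CPM in the 4 libraries. Markers of all astrocytes summed to 2874 to 4376 CPM against 2122 to 3186 CPM, with ranges that overlapped. The 6 neuronal markers summed to 2481 to 5654 CPM against 6188 to 7154 CPM. Markers of oligodendrocytes (5359 to 14530 CPM against 4594 to 7707 CPM) and of choroid plexus (31.6 to 10650 CPM against 113 to 3380 CPM) overlapped between the sets. Prnp, the prion protein gene, was at 661.8 to 1326 TPM against 484.2 to 586.4 TPM. In CPM its ranges overlapped, at 1005 to 2137 CPM against 662.3 to 1036 CPM. The overlap came from lemborexant 7 (1005 CPM), and the next lowest library with Cst7 of at least 1 CPM was lemborexant 2 (1208 CPM). The part of any of these in the levels of the 9 genes was not tested.

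Within the 15 libraries with Cst7 of at least 1 CPM, taken as 13 units with the 2 pairs among them averaged, Cst7 still ran over 16.4 to 144 CPM. Correlations with it (log2 CPM) are given as a description with no test, since the units share depth and tissue makeup and the relations were chosen after the data were seen. Pearson's r was 0.85 for Clu (rho = 0.83), 0.81 for Apoe (rho = 0.80), 0.80 for Lpl (rho = 0.76), 0.75 for Abca1 (rho = 0.74) and 0.71 for Apoc1 (rho = 0.63). Of the 9 genes 3 (Clu, Apoe and Lpl) had an r of at least 0.8, as did 6.54% of all genes. Without the 2 units farthest from the median of Cst7, r was 0.78 for Clu, 0.86 for Apoe, 0.74 for Lpl, 0.65 for Abca1 and 0.68 for Apoc1, and without lemborexant 7 and vehicle 7 it was 0.85, 0.90, 0.83, 0.76 and 0.92 for the same genes. In the 6 lemborexant units r was 0.93, 0.87, 0.83, 0.93 and 0.81 for Clu, Apoe, Lpl, Abca1 and Apoc1, and in the 7 vehicle units 0.86, 0.95, 0.76, 0.91 and 0.62. No r was computed in TPM. Vehicle 5 and 3 had the highest Cst7 among vehicle units. There Clu was at 2586 and 2930 TPM, below the other vehicle units (3026 to 3805 TPM). Lpl was at 36.4 and 31.8 TPM, below vehicle 2, 6 and 7 (53.8, 50.3 and 43.1 TPM) and above vehicle 8 and 9. Apoe was at 138 and 175.9 TPM, above the other vehicle units (at most 131 TPM).

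Lrp1 ran the other way, with r of -0.64 (rho = -0.62), and of -0.69 without the 2 farthest units. The length deposited with Lrp1 was shortest where Cst7 was highest, at 2914, 3193 and 3284 bases in vehicle 5, lemborexant 6 and vehicle 3. It was 3286 bases in vehicle 4, with Cst7 below 1 CPM, and 3547 to 3989 bases in the others. The part of such differences between libraries in any r was not tested. For Apod r was 0.56 (rho = 0.45). It was 0.36 without the 2 farthest units, 0.48 without lemborexant 7 and vehicle 7, 0.89 in the 6 lemborexant units and 0.25 in the 7 vehicle units. Abcg1 and Soat1 gave a pooled r of 0.05 (rho = 0.09) and 0.10 (rho = -0.01). Their values within treatments had opposite signs, 0.88 for Abcg1 and 0.82 for Soat1 in lemborexant units, and -0.64 and -0.71 in vehicle units, and the difference was not tested. Where Cst7 was highest, Soat1 was at 109 and 105 CPM in lemborexant 6 and 5 (Cst7 131 and 94.2 CPM) and at 64.8 and 82.4 CPM in vehicle 5 and 3 (Cst7 144 and 122 CPM).

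**Figure D5:**
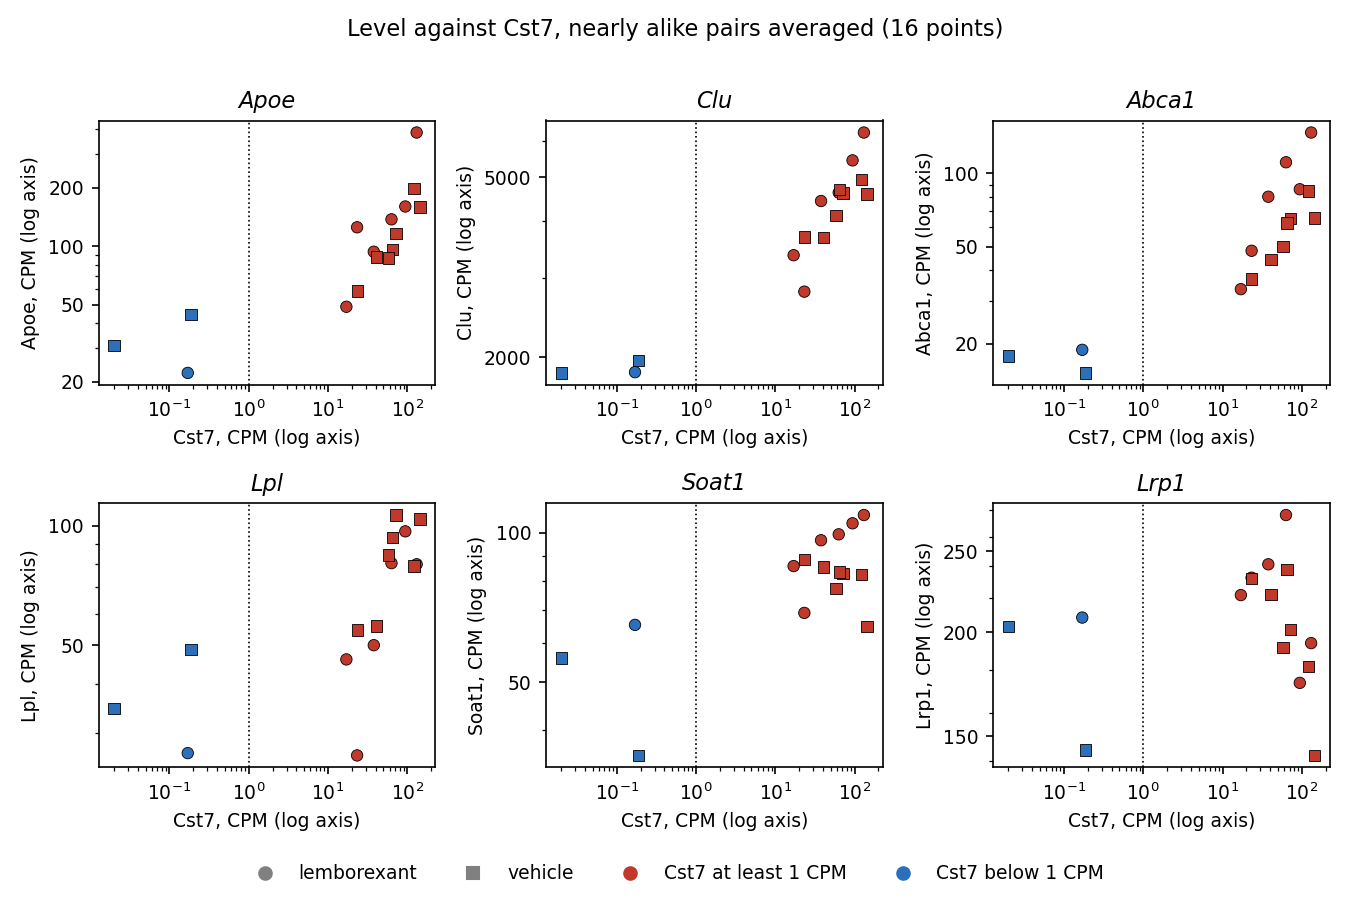
Level of 6 genes of the set against Cst7 (CPM, log axes; Cst7 of 0 drawn at 0.02; nearly alike pairs averaged) in lemborexant (circles) and vehicle (squares) libraries. The dotted line is 1 CPM of Cst7. To its right Apoe, Clu, Abca1 and Lpl climb with Cst7 and Lrp1 declines, and Soat1 climbs in circles but not in squares.

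Among themselves the 9 genes fell into partly separate patterns over the 13 units, given as a description, since all points share depth and tissue makeup. Abca1 tracked Apoe (r = 0.87), Apod (0.86) and Clu (0.83). Abcg1 tracked Soat1 (0.86) but Abca1 less closely (0.49). Apoe and Lpl, both with high r to Cst7, had 0.37 with each other. Over all genes with a mean of at least 1 CPM, the 3 most like Apoe were Cntf, Nradd and Itgb5 (r = 0.979, 0.975 and 0.965), and those most like Clu were Adgre1, Cd84 and Btk (0.978, 0.977 and 0.975). Apoc1 was most like its neighbour Apoc4 (0.960), followed by Mgst1 and Ang (0.958 and 0.935). The units include lemborexant 6 and vehicle 7, where Apoc1 was at 110 and 114.5 CPM and Apoc4 was high as well. Vehicle 7 also held 936 CPM of hepatocyte markers, and r without these libraries was not computed. Lpl was most like Acot2, Arhgef26 and Csf1r, the last a receptor that microglia need for survival (0.945, 0.942 and 0.932). For Soat1 they were Tpp1, Mal and Rassf2 (0.952, 0.942 and 0.940), for Apod Bmp2k, Gpt and Slc6a8 (0.979, 0.967 and 0.963) and for Abca1 AU020206, Atp6v0d2 and Igfbp7 (0.956, 0.954 and 0.954). For Abcg1 they were Krt15, Sema4d and Tmod1 (0.931, 0.919 and 0.914) and for Lrp1 Tpr, Ylpm1 and Huwe1 (0.944, 0.941 and 0.938).

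Lemborexant 6 held the highest level of the 19 libraries for 6 of the 9 genes in CPM, Apoe, Clu, Apod, Abca1, Abcg1 and Soat1, and in TPM for 2, Apoe and Apod. The share of all genes highest in that library was not counted, so these counts do not set the 9 genes apart. Lemborexant 6 also had the highest sums of reactive astrocyte markers (9652 CPM), oligodendrocyte markers (14530 CPM) and microglial markers (1501 CPM). Without it and vehicle 7, none of the 9 genes passed, and the log2 change was -0.25 for Apoe, 0.44 for Apod and 0.21 for Abca1.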

How the data were processed

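Total cortical RNA was made into libraries with a Takara SMARTer Ultra Low kit, per the labels' protocols. The submitters' processing notes name bcl2fastq, DRAGEN 3.9.3-8 and GRCm38, with annotation release and strand setting not given in the sources used here. Per the file headers, each deposited table gives estimated counts, TPM values and lengths of 55487 genes. The authors' estimated counts divide shared reads between genes and were rounded here. Symbols and coordinates came from GENCODE M21 (55141 identifiers matched) and promoter windows from RefSeq.

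Groups came from the treatment labels. Differences were tested by quasi-likelihood in edgeR 4.0.16 (R 4.3.3; TMM factors, expression filter, robust dispersion, Benjamini-Hochberg threshold 0.05), two-sided, over 19105 genes of 10 lemborexant and 9 vehicle libraries, and the script was tested on simulated data. CPM use TMM factors, and log2 CPM a prior count of 2. Alternatives were RLE factors, no filter, DESeq2 1.42.0, limma 3.58.1 on log2 TPM with a pseudocount of 1 or 0.1 where the mean reached 1 TPM, summed pairs, libraries left out and library number range (859 to 933, 1064 to 1602) as a covariate. The genes of the set, the lists and the Cst7 limit were chosen with earlier results of these data known. Named from each list were the genes that passed, the 2 with the smallest p among the rest and all neighbours of Apoe, and for each gene of the set the 3 tested genes with the highest Pearson's r.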

Additional observations from a re-analysis of the deposited data

Results flagged for a closer look

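Of 48 groups of values searched for 1 library far from its group, 12 held one. The rule is set to flag about 1 in 20 groups of independent values with a normal spread. The groups here share libraries and mix those with Cst7 below and at least 1 CPM, so the count cannot be set against that rate. In lemborexant 6, Apoe (385 CPM), Apoc1 (110 CPM), Apoc2 (13.4 CPM) and Abcg1 (436 CPM) stood far above the other lemborexant libraries. In vehicle 7, Apoa2 (325 CPM), Apoa1 (230 CPM), Apoc1 (114 CPM), Apoh (39.8 CPM), Apoc3 (33.9 CPM) and Lipc (4.54 CPM) stood far above the other vehicle libraries. Apod stood apart in vehicle 3 (822 CPM), and Apoa2 in lemborexant 7 (1.90 CPM).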

How the results depend on the processing

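The number of genes passing (498) was 254 with no expression filter, 1811 with DESeq2, 118 and 26 on log2(TPM + 1) and log2(TPM + 0.1), 307 without lemborexant 7 and vehicle 7, 294 with the library number range as a covariate, and 31 (without lemborexant 9) to 1274 (without vehicle 8) with 1 library left out. It was 0 with nearly alike pairs summed, where 4102 had an unadjusted p under 0.05, and 0 with the libraries with Cst7 below 1 CPM also left out, where 3928 did; the cause was not tested. On the TPM scales the median log2 change of all genes was 0.18 and 0.20. Of the 9 genes, 0 passed in every fit, leaving out each library included, with adjusted p of 0.0800 for Abcg1 on log2(TPM + 1) as the lowest. Of 73 genes in the lists, 3 passed, 4 with DESeq2 (1 higher), and 0 did with no filter, on either TPM scale, with pairs summed, with the covariate, or without vehicle 7 and either of lemborexant 6 and 7, 1 without the libraries with low Cst7, 0 when pairs were also summed, and 0 to 5 with 1 library left out. The count of the set higher throughout with Cst7 was 3 in CPM and 5 in TPM. The sign turned for Apoe without lemborexant 6 (-0.22) and without lemborexant 6 and vehicle 7 (-0.25), for Clu without the libraries with low Cst7 (-0.0049), without lemborexant 6 and vehicle 7 (-0.072) and without any 1 of lemborexant 2, 4, 5, 6 and 9 and vehicle 1 and 4 (-0.0859 to -0.0063), and for Apoc1 without vehicle 7 (0.40) or lemborexant 7 and vehicle 7 (0.40). With 1 library left out, log2 changes ran over -0.22 to 0.41 for Apoe, -0.0859 to 0.0980 for Clu, -1.30 to 0.40 for Apoc1, 0.44 to 0.86 for Apod, 0.21 to 0.55 for Abca1, 0.16 to 0.26 for Abcg1, -0.62 to -0.39 for Lpl, 0.14 to 0.22 for Lrp1 and 0.17 to 0.31 for Soat1. Fits without the Cst7-low libraries with pairs summed, and without lemborexant 6 and vehicle 7, were chosen after seeing the data. No paired analysis was possible because the labels give no replicate numbers.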
